A study of Mus musculus with 14 samples.

Results

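Dzip3 and Cip2a are neighbouring genes on mouse chromosome 16 that lie beside a border between blocks of chromatin contact. Dzip3 encodes an RNA-binding RING-type ubiquitin ligase that can attach ubiquitin to histone H2A. Cip2a encodes an inhibitor of protein phosphatase 2A (PP2A), which removes phosphate groups from many signalling proteins. Cip2a is known from cancer cells for keeping the transcription factor Myc stable, and from dividing cells for holding broken chromosomes together with Topbp1. The genes were selected on their place beside a low value of the insulation score of these same matrices, with their contacts across it and with Dppa2 and Dppa4 already seen. All 10 kb bins that overlap either gene body were taken, which gave 10 of 535 bins and 2 of the 28 protein-coding genes in the interval. Dzip3 covers 8 of these bins and Cip2a covers 3, and 1 bin belongs to both.

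In Hi-C, pieces of cut DNA that touch inside the nucleus are ligated and sequenced, and the read pairs linking a pair of bins count how often those bins met. Along mammalian chromosomes, contacts are frequent inside domains and less frequent across the boundaries between them. Many boundaries are bound by CTCF, which stops the cohesin complex as it extrudes loops of chromatin. Such borders can limit which enhancers a promoter meets.

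The series describes 14 Capture Hi-C samples in 10 groups, namely embryonic stem cells of the mouse (mESC), neural precursors made from them, and stem cell lines carrying deletions or an inversion near Dppa2 and Dppa4. None of those samples enters here. The data are 2 pooled contact matrices, mESC after 2 days of auxin and untreated mESC, and they take these names from the deposited matrices. Auxin is a plant hormone that triggers the breakdown of a protein carrying a matching tag in engineered cells; the sources used here do not name a tagged protein, and do not say whether the untreated cells carried the same tag. Per the labels, the cells of the 14 samples are hybrids of the Cas and 129 strains. The stem cells among them were grown with 2i and LIF, inhibitors and a cytokine that keep stem cells undifferentiated. No label names the cells of the pooled matrices, and the matrices have 1 row per bin with no split by allele.

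In mm10, Dzip3 lies at chr16:48924228-48994142 on the minus strand and is 69.9 kb long. Cip2a lies at chr16:48994157-49019716 on the plus strand and is 25.6 kb long. The gene bodies are separated by 14 bases and are read away from each other. The end of Cip2a is 284 bases before the boundary bin, which starts at 49020001, and Myh15, a myosin heavy chain gene, begins 27.4 kb beyond that bin. On the other side, Retnlg, a gene of the resistin-like secreted proteins, ends 49.7 kb before Dzip3. "Left" below means the 340 bins before Dzip3, and "right" the 184 bins after the boundary bin.

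The starts of the genes are shown because a single bin holds both of them, so that contacts of the Dzip3 promoter and of the Cip2a promoter cannot be told apart at this resolution. The windows hold 250 bases before to 50 after each annotated start, from RefSeq on GRCm38.p6, the coordinates of mm10, in the reference strain and not in the cells of the study. Capitals mark a CCAAT box (CCAAT, or ATTGG on the other strand) and the core of an ETS factor site (CCGGAAG, or CTTCCGG). The Dzip3 window is chr16:48994093-48994392 on the minus strand and the Cip2a window is chr16:48993938-48994237 on the plus strand.
Dzip3: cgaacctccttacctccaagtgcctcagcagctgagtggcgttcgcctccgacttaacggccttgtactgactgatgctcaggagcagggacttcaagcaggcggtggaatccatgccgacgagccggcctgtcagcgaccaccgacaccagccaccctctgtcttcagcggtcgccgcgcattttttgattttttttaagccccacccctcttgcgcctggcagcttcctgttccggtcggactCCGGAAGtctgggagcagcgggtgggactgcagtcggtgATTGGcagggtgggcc
Cip2a: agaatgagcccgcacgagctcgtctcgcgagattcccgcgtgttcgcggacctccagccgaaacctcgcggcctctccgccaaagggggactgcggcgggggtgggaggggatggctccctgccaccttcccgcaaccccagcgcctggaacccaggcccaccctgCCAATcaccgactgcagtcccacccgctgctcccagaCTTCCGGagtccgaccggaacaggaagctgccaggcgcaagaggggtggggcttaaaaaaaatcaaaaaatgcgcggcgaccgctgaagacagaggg

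These starts lie 46 bases apart, and their windows share 145 bases, read from opposite strands. The marked letters of both windows are the same 2 places in the genome. The Dzip3 window has 61.3% G and C with 21 CG dinucleotides, and the Cip2a window has 65.7% with 27. A second annotated Dzip3 start lies 76 bases from that of Cip2a, and its window contains the same marked letters. Neither window holds GATC, the site of MboI, the enzyme that cut the labelled samples per their protocol, which occurs in 48% of the 32851 RefSeq promoter windows. A CCAAT box on either strand occurs in 37.4% of those windows and the ETS core in 8.86%. The 2 marked motifs were chosen after the letters had been read and do not overlap.

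The recovered depth was 433895 read pairs in the auxin matrix and 439849 in the untreated matrix, and the median bin held 1532 and 1542 pairs. Of the 10 bins of the genes, 9 held 806 to 2964 pairs in the auxin matrix and 694 to 2940 in the untreated matrix. The bin that starts at 48960001, inside Dzip3, held 14 pairs in each matrix. Balancing gave each of these pairs a weight of 41.5 in the auxin matrix and 44.7 in the untreated matrix, where the median bin has a weight of 0.981 and 0.957. To the left, 7 pairs made 4.31% of the balanced contact of Dzip3 in the auxin matrix, and 9 pairs made 14.4% in the untreated matrix. The number of pairs of this bin was thus equal in the matrices while its balanced contact was not, and values of Dzip3 are also given without it where it changes the direction, moves an interval across 0 or changes the size by over 1.5 times. Balanced row sums, which the method would make equal, were higher in the auxin matrix for the other 9 bins, by log2 0.11 to 0.36.

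With 1 pooled matrix per condition there are no replicates and no test, so each comparison is one of these libraries and not of the conditions. Contact is given as distance-corrected contact, the balanced contact of an area divided by the mean at the same distances in the same matrix, for bins at least 20 kb apart. A value of 1 is the average of the interval at those distances. Brackets hold 95% intervals that cover counting error only, and log2 ratios are auxin over untreated.

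Right of the boundary, both genes had less contact than the average in both matrices and more of it in the auxin matrix. The genes were selected beside a low insulation score with these contacts already seen, so the low contact is no separate finding. Dzip3 had a distance-corrected contact of 0.697 in the auxin matrix and 0.541 in the untreated matrix, from 4194 and 3616 read pairs. The log2 ratio was 0.37 (0.30 to 0.43), and 0.35 (0.29 to 0.41) without the sparse bin. Cip2a had 0.867 in the auxin matrix and 0.748 in the untreated matrix, from 2360 and 2162 pairs, a log2 ratio of 0.21 (0.13 to 0.30). When the recovered read pairs were balanced again without the nearest diagonals, which evens out the row sums, the ratio of Dzip3 was 0.24 and that of Cip2a was -0.12, so the direction for Cip2a depends on the balancing.

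To the left the genes differed from each other. Cip2a had a distance-corrected contact of 0.986 in the auxin matrix and 0.738 in the untreated matrix, from 2830 and 2236 pairs, a log2 ratio of 0.42 (0.34 to 0.50). Dzip3 had 0.925 in the auxin matrix and 0.981 in the untreated matrix, from 7333 and 7087 pairs, a log2 ratio of -0.08 (-0.13 to -0.04). Without the sparse bin the values of Dzip3 were 1.01 and 0.955 and the ratio was 0.07 (0.03 to 0.12). Under the deposited balancing its direction thus rests on the 7 left-side pairs of that bin in the auxin matrix and 9 in the untreated matrix. The bins of Cip2a alone exceeded those of Dzip3 alone by 0.56 on the log2 scale (0.44 to 0.68), and by 0.38 (0.27 to 0.50) without the sparse bin. Balanced again, this difference was 0.36 and Cip2a's own ratio was 0.14. Dzip3's own ratio was then -0.19 (-0.23 to -0.14) with the sparse bin kept, so its direction depends on the balancing too.

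**Figure D1:**
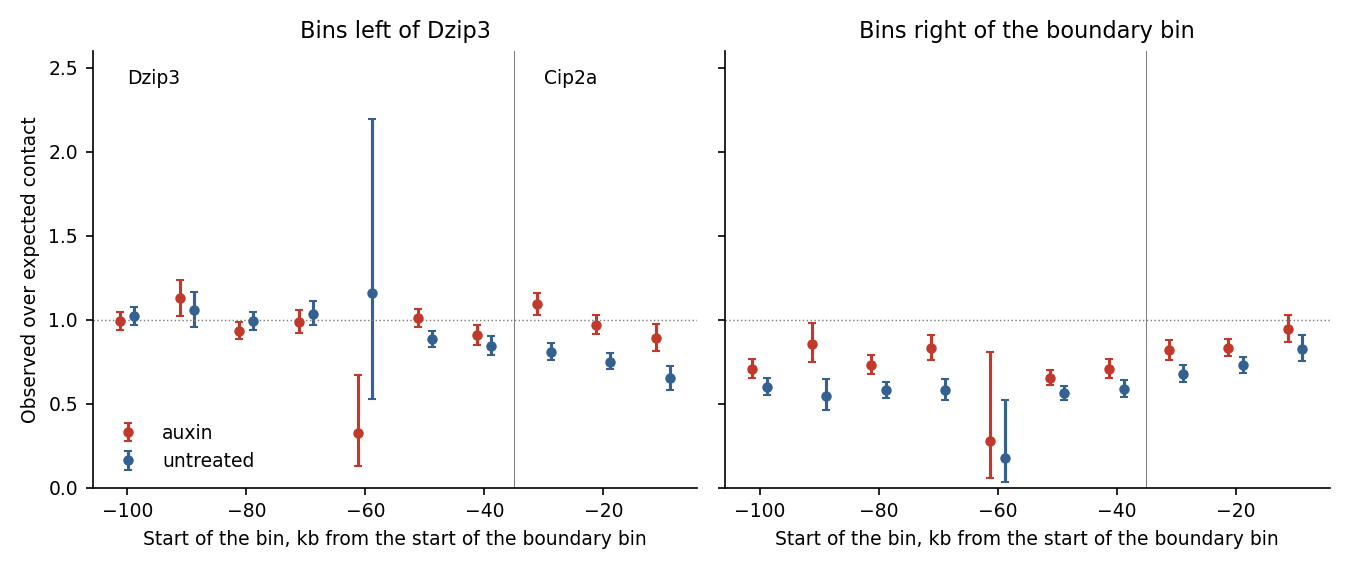
Distance-corrected contact of each 10 kb bin of Dzip3 and Cip2a with the left and the right side, in the auxin and the untreated matrix, against distance from the boundary bin. Bars are 95% counting intervals. To the left, the shared bin and both further Cip2a bins lie higher in the auxin matrix (log2 0.43, 0.37 and 0.46), and the sparse bin has wide bars.

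Bin by bin, the larger left-side ratios began at the shared promoter bin under the deposited balancing. The first 4 bins of Dzip3, starting at 48920001, had left-side log2 ratios of -0.04, 0.09, -0.09 and -0.07, each with an interval that included 0. After the sparse bin at -1.83 (-3.49 to -0.23), the next pair of Dzip3 bins had 0.19 (0.08 to 0.30) and 0.11 (-0.03 to 0.24). The shared bin had a contact of 1.09 in the auxin matrix and 0.809 in the untreated matrix, and a ratio of 0.43 (0.31 to 0.56). Both further Cip2a bins had 0.37 (0.25 to 0.49) and 0.46 (0.25 to 0.66). The boundary bin itself, just outside the genes, had 0.23 (0.07 to 0.39). These Cip2a values were lower when balanced again, at 0.15, 0.22 and 0.03. So were those of Dzip3, with -0.16, -0.14, -0.25 and -0.25 in its first 4 bins. The pair after the sparse bin then had 0.08 and -0.01.

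To the right the ratios were above 0 in all 10 bins, with the larger ones inside Dzip3, under the deposited balancing. They were 0.24, 0.64, 0.33 and 0.51 in the first 4 bins of Dzip3, 0.22 and 0.27 in the pair after the sparse bin, 0.27 in the shared bin, and 0.19 in each further Cip2a bin. The interval excluded 0 in each of these 9 bins, and in the sparse bin it ran from -2.27 to 3.53 around 0.63. The boundary bin had 0.07 (-0.08 to 0.22). Balanced again, 6 of the 9 bins lay above 0: the last pair of bins of Dzip3 alone had 0.02 and 0.07, and the shared bin and both further Cip2a bins had -0.09, -0.02 and -0.23.

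To the right, ratios of this size were common in the interval. A ratio past 1.5-fold higher to the right was found in 22.8% of the 337 bins before the boundary bin with at least 100 pairs, each against the same right side, and in 1 of 9 bins of the genes, the second of Dzip3. Past 1.5-fold lower it was 3.86% of the bins and 0 of 9. The median ratio to the right was 0.27 for the 9 bins and 0.28 for all bins, and 72.7% of all these bins lay above 0. To the left, where every other bin was set against all bins before it, 0.314% of 318 bins were past 1.5-fold higher and 0.943% past 1.5-fold lower, with 0 of 9 bins of the genes in either direction, so few bins of any kind passed. The median to the left was 0.11 for the 9 bins and -0.05 for all, and 6 of the 9 lay above 0, against 38.4% of all bins. Balanced again, 4 of the 9 lay above 0 to the left, against 46.5% of all bins, and the medians of the 9 bins were -0.01 to the left and 0.07 to the right, against -0.02 and 0.23 for all bins.

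The balance between the sides moved in opposite directions in the 2 genes. Of the read pairs of Dzip3 that went to either side, 36.4% (35.5 to 37.3%) went right in the auxin matrix and 33.8% (32.9 to 34.7%) in the untreated matrix, by the exact binomial interval. Of those of Cip2a, 45.5% (44.1 to 46.8%) went right in the auxin matrix and 49.2% (47.7 to 50.6%) in the untreated matrix. The right-side ratio minus the left-side ratio was 0.45 (0.37 to 0.53) for Dzip3, or 0.28 (0.20 to 0.36) without the sparse bin. For Cip2a it was -0.20 (-0.32 to -0.09). Weighted by read pairs, this difference was 0.18 (0.10 to 0.26) for Dzip3 and -0.18 (-0.29 to -0.06) for Cip2a. Balanced again, with the sparse bin kept, the same differences were 0.43 and -0.26. The opposite signs of the genes were thus also found with even row sums. Leaving out that bin and balancing again were not combined.

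By single bins, the share of read pairs to the right was higher in the auxin matrix through Dzip3 and lower from the shared bin onward. The second Dzip3 bin had 33.5% in the auxin matrix and 25.0% in the untreated matrix, the widest gap among the bins. In the last bin of Dzip3 alone the shares were 40.3% and 39.3%, with overlapping intervals. In the shared bin they were 40.8% in the auxin matrix and 44.0% in the untreated matrix, and in the last Cip2a bin 52.4% and 57.0%. The boundary bin had 53.8% in the auxin matrix and 55.4% in the untreated matrix.

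**Figure D2:**
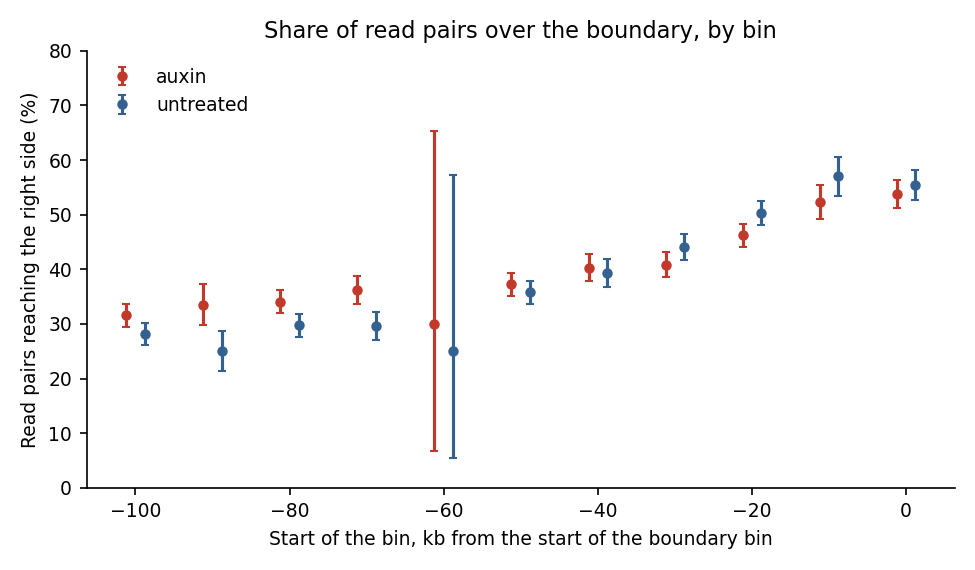
Percent of the read pairs of each bin that went to the right side, in the auxin and the untreated matrix, against distance from the boundary bin; bars are 95% exact binomial intervals. The auxin points lie above the untreated points across Dzip3 and below them from the bin shared with Cip2a onward.

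By distance, the ratios to the right were lower close to the genes than far away. To the right at 20 to 100 kb, the log2 ratio was -0.15 (-0.39 to 0.09) for Dzip3 and -0.13 (-0.35 to 0.08) for Cip2a, and neither interval excluded 0. Balanced again, these were -0.39 (-0.63 to -0.15) and -0.50 (-0.72 to -0.29), both with intervals below 0. At 500 to 1000 kb it was 0.51 (0.38 to 0.64) for Dzip3, from a contact of 0.652 in the auxin matrix and 0.458 in the untreated matrix. For Cip2a at that range it was 0.43 (0.25 to 0.61), from 0.915 and 0.678, but 0.16 (-0.02 to 0.34) when balanced again. Beyond 1000 kb, Dzip3 had 1.08 in the auxin matrix and 0.809 in the untreated matrix, and Cip2a had 1.35 and 1.14, so that at this range Cip2a met the right side more often than the average in both matrices. The ratio of Cip2a at this range was 0.25 (0.08 to 0.41), but -0.04 (-0.21 to 0.12) when balanced again. At 250 to 500 kb Dzip3 had 0.24 (0.08 to 0.40), or 0.36 (0.21 to 0.52) without the sparse bin, but -0.05 (-0.20 to 0.11) when balanced again. The ratio from 500 kb upward exceeded that under 250 kb by 0.25 (0.10 to 0.40) for Dzip3 and by 0.37 (0.18 to 0.56) for Cip2a, and by 0.29 and 0.49 when balanced again.

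To the left within 100 kb, Dzip3 had a contact of 0.819 in the auxin matrix and 0.937 in the untreated matrix, a log2 ratio of -0.19 (-0.33 to -0.06), or -0.07 (-0.20 to 0.07) weighted by read pairs. At 250 to 500 kb the ratio of Dzip3 was 0.27 (0.16 to 0.37). At 500 to 1000 kb it was -0.46 (-0.56 to -0.36), but 0.16 (0.06 to 0.26) without the sparse bin, which held 2 pairs of that range in the auxin matrix and 5 in the untreated matrix. Cip2a had 0.24, 0.42, 0.53 and 0.42 from 100 kb upward, each with an interval above 0. Balanced again, these were -0.11 (-0.31 to 0.09), 0.14 (-0.03 to 0.31), 0.22 (0.07 to 0.38) and 0.20 (0.05 to 0.35), so that only the bands beyond 500 kb kept an interval above 0. Weighted by read pairs, 100 to 250 kb had 0.17 (-0.02 to 0.37). Within 100 kb it had 0.24 (-0.20 to 0.68), on 87 and 89 pairs.

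**Figure D3:**
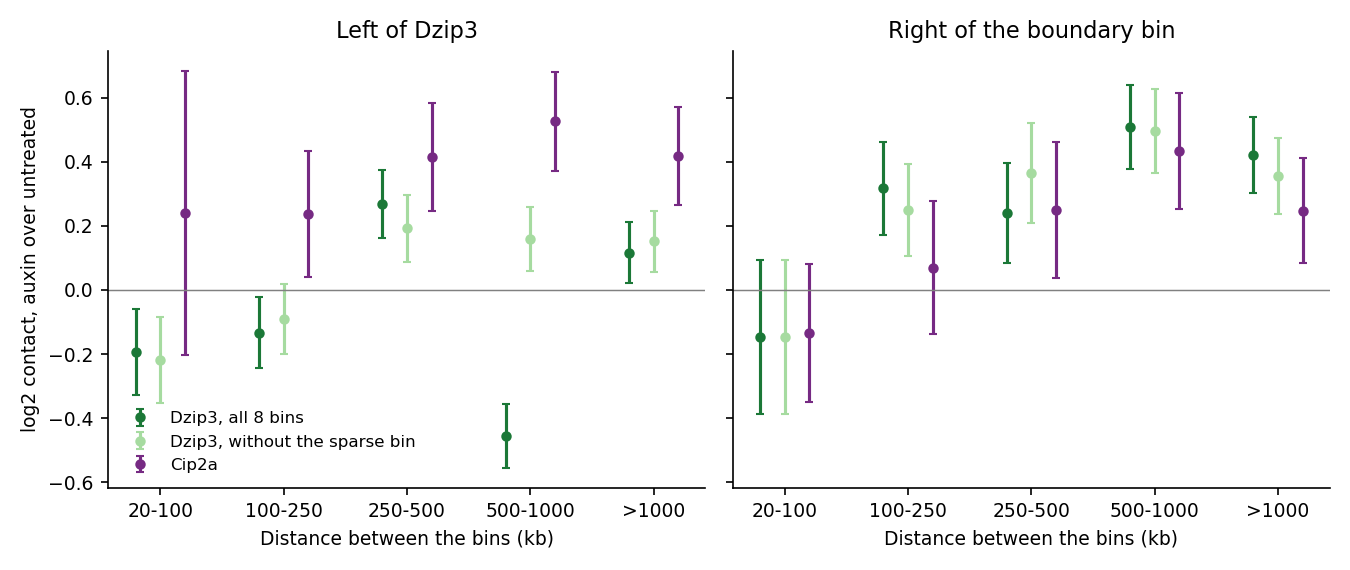
Log2 ratio, auxin over untreated, of the distance-corrected contact of Dzip3 and Cip2a with each side in 5 bands of distance; bars are 95% counting intervals. The nearest band on the right is below 0 for both genes with intervals that include 0, and the bands beyond 250 kb on the right are above 0, under the deposited balancing.

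The far left divided again when it was split at 1800 kb, a distance chosen after the profile had been seen. At 1000 to 1800 kb, which spans gene-poor DNA between Nectin3 and Dppa4, Cip2a had a contact of 1.15 in the auxin matrix and 0.611 in the untreated matrix, from 431 and 249 pairs. The log2 ratio was 0.91 (0.69 to 1.14), and 0.69 when balanced again. Dzip3 had 1.01 in the auxin matrix and 0.710 in the untreated matrix there, a ratio of 0.51 (0.36 to 0.65). It was 0.27 (0.13 to 0.42) weighted by read pairs and 0.58 (0.43 to 0.72) when balanced again. Beyond 1800 kb the ratios were -0.10 (-0.31 to 0.11) for Cip2a and -0.27 (-0.39 to -0.14) for Dzip3, or -0.09 (-0.22 to 0.04) for Dzip3 without the sparse bin. When balanced again they were -0.26 (-0.47 to -0.06) for Cip2a and -0.35 (-0.48 to -0.22) for Dzip3.

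Among single genes, Dppa4 and Dppa2, which encode DNA-binding proteins of pluripotent cells, had ratios above 0 with both genes, and the interval excluded 0 for 3 of the 4 pairs. Dzip3 and Dppa4 had 134 pairs and a contact of 1.26 in the auxin matrix, against 78 pairs and 0.629 in the untreated matrix, a log2 ratio of 1.00 (0.59 to 1.42). Cip2a and Dppa4 had 1.42 in the auxin matrix and 0.820 in the untreated matrix, a ratio of 0.79 (0.12 to 1.5). With Dppa2 the ratio was 1.04 (0.06 to 2.09) for Cip2a, on 27 and 14 pairs, and 0.65 (-0.09 to 1.42) for Dzip3, on 41 and 26 pairs. Balanced again, Dzip3 with Dppa4 had 0.71 (0.30 to 1.13), while Cip2a had 0.40 (-0.27 to 1.11) with Dppa4 and 0.64 (-0.34 to 1.69) with Dppa2, so that 1 of the 4 pairs kept its interval above 0. Contacts with these genes were among the values known when the members were picked. Morc1, a germline gene that silences transposons, had 0.53 (0.34 to 0.72) with Cip2a and 0.32 (0.20 to 0.44) with Dzip3. Balanced again, it had 0.18 (-0.02 to 0.37) with Cip2a and 0.15 (0.03 to 0.27) with Dzip3.

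Nearer by, the ratios of the genes had opposite signs in part, in calls that other settings ended. Trat1, which encodes a T cell receptor-associated protein, had -0.16 (-0.31 to -0.02) with Dzip3 and 0.27 (0.004 to 0.53) with Cip2a. The value of Dzip3 was -0.09 (-0.23 to 0.05) without the sparse bin, -0.05 (-0.19 to 0.09) weighted by read pairs and -0.36 (-0.50 to -0.22) balanced again, and that of Cip2a was -0.06 (-0.32 to 0.21) balanced again. The bins from Trat1 through the resistin-like genes to Retnlg gave -0.13 (-0.24 to -0.02) with Dzip3, or -0.09 (-0.20 to 0.02) without the sparse bin. With Cip2a the same bins gave 0.33 (0.12 to 0.54), but 0.01 (-0.19 to 0.22) when balanced again. Of the resistin-like genes themselves, Retnla, Retnlb and Retnlg had -0.12, 0.04 and -0.11 with Dzip3 and 0.37, 0.30 and 0.99 with Cip2a. Each of these 6 intervals included 0.

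Across the boundary, Myh15 was met less than the average by both genes. Dzip3 and Myh15 had a contact of 0.573 in the auxin matrix and 0.478 in the untreated matrix, a log2 ratio of 0.26 (0.12 to 0.40). Cip2a, which is closer to it, had 0.654 in the auxin matrix and 0.641 in the untreated matrix, a ratio of 0.03 (-0.16 to 0.21), or -0.41 when balanced again. Further right, Ift57, a gene of the transport machinery of cilia, had 0.87 (0.49 to 1.26) with Dzip3 and 0.42 (-0.08 to 0.92) with Cip2a. Cd47, which encodes a surface protein that restrains phagocytes, had 0.65 (0.29 to 1.02) with Dzip3 and 0.70 (0.23 to 1.18) with Cip2a, the Cip2a value being 0.40 (-0.07 to 0.88) when balanced again. Bbx, an HMG-box gene, had 0.35 (0.10 to 0.60) with Dzip3, or 0.17 (-0.08 to 0.42) when balanced again, and -0.01 (-0.32 to 0.30) with Cip2a.

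At the far left, Cd96, which encodes a receptor of lymphocytes, had the lowest ratio with each gene among those with at least 20 pairs in both matrices together. It was -0.99 (-1.58 to -0.41) with Dzip3, from 45 pairs in the auxin matrix and 60 in the untreated matrix. With Cip2a it was -1.40 (-2.39 to -0.44), on 17 and 24 pairs, but -0.70 (-1.69 to 0.26) weighted by read pairs, where Nectin3 was the lowest partner of Cip2a. Nectin3, a cell adhesion gene, had 0.72 (0.35 to 1.09) with Dzip3, but -0.02 once all bins under 100 pairs were left out. With Cip2a, Nectin3 had -0.12 (-0.79 to 0.52), but -0.97 (-1.64 to -0.32) once bins under 100 pairs were left out and -0.86 (-1.52 to -0.22) weighted by read pairs. Next lowest were Slc9c1, a sodium/proton exchanger gene, with Dzip3 at -0.83 (-1.61 to -0.06), or -0.55 (-1.32 to 0.23) weighted by read pairs, and Plcxd2 with Cip2a at -0.60 (-1.71 to 0.49). When balanced again, Slc9c1 was the lowest partner of Dzip3 at -1.08 (-1.85 to -0.31), below Cd96 at -0.96 (-1.55 to -0.38). Gm52257 had -0.47 (-1.23 to 0.27) with Dzip3 and 1.38 (-0.15 to 3.20) with Cip2a, the Cip2a value on 15 pairs in the auxin matrix and 5 in the untreated matrix. Tmprss7, a membrane serine protease gene, had 1.13 (-0.16 to 2.55) with Cip2a.

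**Figure D4:**
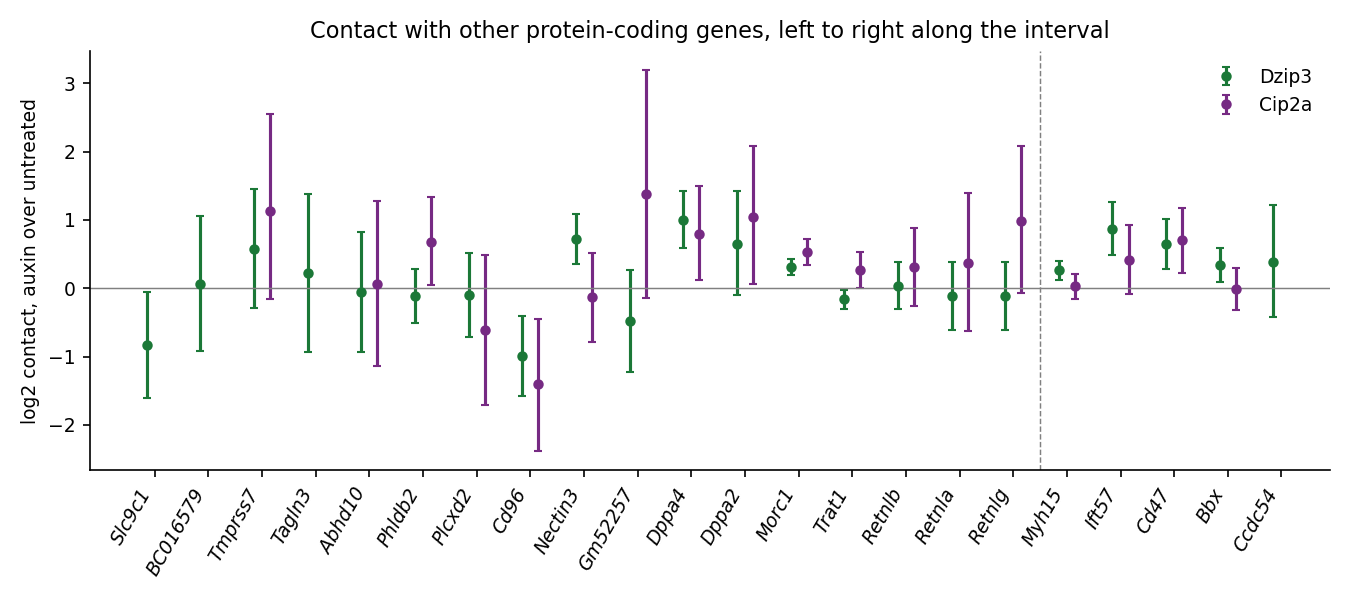
Log2 ratio, auxin over untreated, of the contact of Dzip3 and of Cip2a with each named protein-coding gene, in order along the chromosome; bars are 95% counting intervals. Dppa4 lies above 0 for both genes and Cd96 below 0 for both, while Trat1 lies on opposite sides of 0, a difference in sign that is lost when balanced again.

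Counted over partners, Dzip3 had 22 genes with enough pairs, of which 5 were past 1.5-fold higher and 2 past 1.5-fold lower, with a median log2 ratio of 0.14. Cip2a had 18, of which 7 were past 1.5-fold higher and 2 lower, with a median of 0.40, or 0.18 when balanced again. Together these were 12 of 40 higher and 4 of 40 lower. Among all 240 measured pairs of protein-coding genes, 20% were past 1.5-fold higher and 12.9% past 1.5-fold lower, with a median of 0.02. All 5 partners of Dzip3 on the right lay above 0, with a range of 0.26 to 0.87, and 3 of 4 of Cip2a did. Among all 240 pairs 51.25% did, a share that was not split by side. When balanced again, all 5 of Dzip3 still lay above 0, with a range of 0.16 to 0.68, and 2 of 4 of Cip2a did. Of 19 listed genes that act with Dzip3 or Cip2a, among them PP2A subunits such as Ppp2ca, the PP2A inhibitor Set, and Myc, Plk1, Topbp1, Rnf2 and Dazl, 0 lie in the interval.

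In windows of 100 kb, most of the right side was higher in the auxin matrix. Of 19 windows on the right with at least 50 pairs, 18 lay above 0 for both genes together, and 12 did when balanced again. On the left 20 of 34 did. Cip2a alone lay above 0 in 19 of its 22 left windows, 9 of them past 1.5-fold. Balanced again, it did in 14, with 4 of them past 1.5-fold. Such windows were not counted for other genes of the interval, so these counts have no like share beside them. By single bins with at least 100 pairs, each against a whole side, 72.7% of all bins lay above 0 to the right and 38.4% to the left. That is another measure and cannot be set against the window counts. The highest windows were 49.92 to 50.02 Mb at 0.97 (0.63 to 1.32), 47.42 to 47.52 Mb at 0.97 (0.53 to 1.41) and 47.82 to 47.92 Mb at 0.94 (0.67 to 1.21). Without the sparse bin these were 0.47, 0.96 and 0.52, so the first and the third were smaller without it. Without all bins under 100 pairs they were 0.31 (-0.04 to 0.65), 0.99 (0.56 to 1.44) and 0.51 (0.24 to 0.78), and the interval of the first included 0.

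The lowest windows leaned more on sparse bins. They were 47.12 to 47.22 Mb at -1.93 (-2.49 to -1.37), 46.92 to 47.02 Mb at -1.44 (-2.05 to -0.85) and 48.02 to 48.12 Mb at -1.44 (-1.72 to -1.16). The last held 269 read pairs in the auxin matrix and 186 in the untreated matrix, and without the sparse bin its ratio was 0.28 (0.01 to 0.56). Without all bins under 100 pairs the other pair of windows had -0.58 and -0.89, both with intervals below 0.

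**Figure D5:**
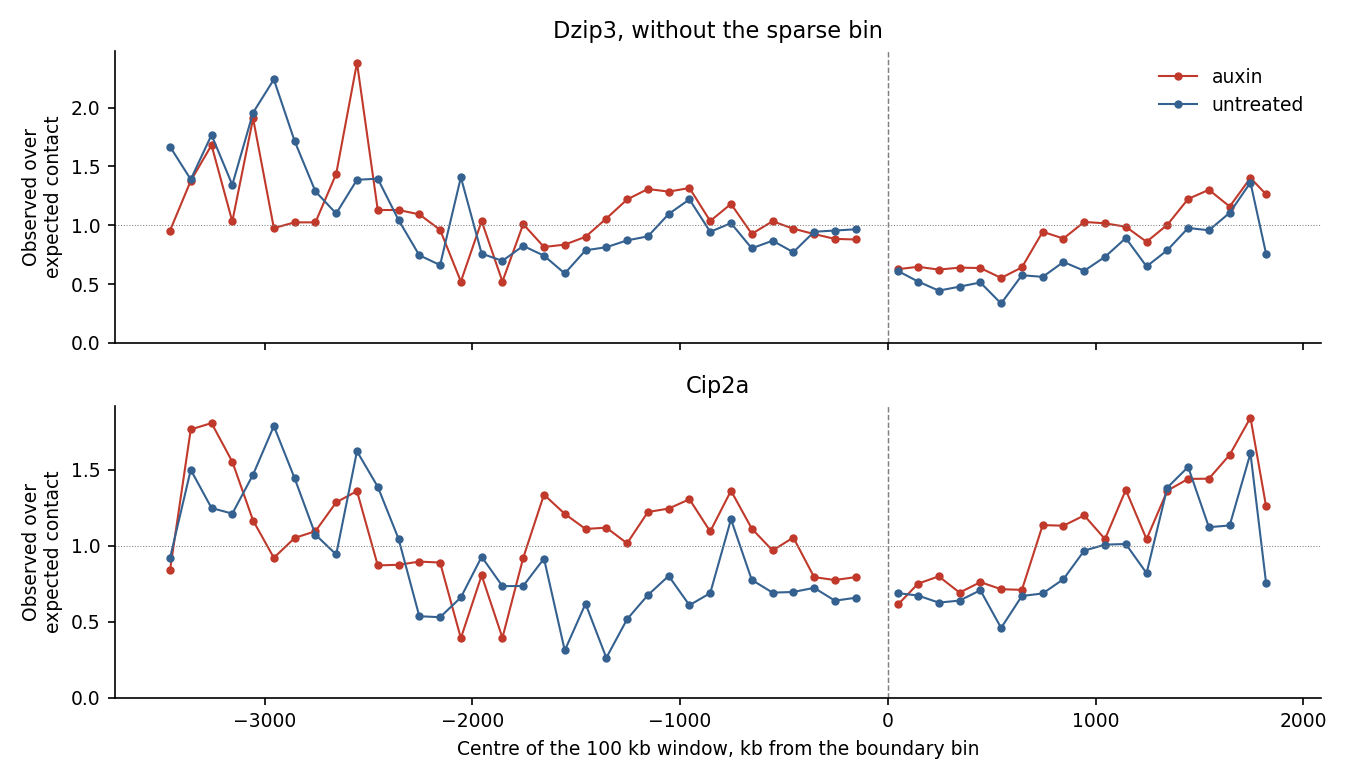
Distance-corrected contact of Dzip3 and of Cip2a with 100 kb windows along the interval in the auxin and the untreated matrix. The sparse bin is left out for Dzip3 only. Cip2a in the auxin matrix lies above its untreated profile over the gene-poor stretch on the left, and both genes do over most windows on the right, under the deposited balancing.

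The genes on either side were set beside them. The bins from Trat1 to Retnlg, which lie further from the boundary on the same side, had a right-side contact of 0.691 in the auxin matrix and 0.592 in the untreated matrix, a log2 ratio of 0.22 (0.16 to 0.28). The ratio of Dzip3 to the right exceeded it by 0.14 (0.05 to 0.23), but by 0.06 (-0.03 to 0.15) when bin pairs were weighted by their read pairs. That of Cip2a differed from it by -0.01 (-0.11 to 0.10), but by -0.24 (-0.34 to -0.13) when balanced again. Myh15, on the other side, had a left-side contact of 0.812 in the auxin matrix and 0.661 in the untreated matrix, a ratio of 0.30 (0.24 to 0.35). The left-side ratio of Cip2a exceeded that of Myh15 by 0.12 (0.03 to 0.22), but was 0.04 below it when balanced again.

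Within the pair, contact among the bins of Dzip3 was 0.748 in the auxin matrix and 0.622 in the untreated matrix, a log2 ratio of 0.27 (0.11 to 0.42). Without the sparse bin it was 0.882 and 0.850, a ratio of 0.05 (-0.10 to 0.21). Between the bins of Dzip3 alone and those of Cip2a alone the ratio was 0.11 (-0.11 to 0.33), and -0.14 (-0.36 to 0.09) without the sparse bin. Without that bin, a difference in contact within or between the gene bodies was not detectable at this depth.

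The insulation score, log2 of the contact across a bin within 100 kb on each side over its mean across the interval, is low where few contacts cross. The boundary bin scored -0.78 in the auxin matrix and -0.78 in the untreated matrix. Balanced again it scored -0.65 in the auxin matrix and -0.42 in the untreated matrix, and the difference was -0.10 with a window of 50 kb and 0.10 with one of 200 kb. With the deposited balancing and 100 kb it was the lowest of 515 scored bins in the auxin matrix and ranked 4 in the untreated matrix, where bins at 50.74, 50.75 and 50.76 Mb scored -0.80, -0.92 and -1.02. It was thus the deepest point of the auxin matrix at this setting, and not of the untreated one. The genes were selected on a low score at this place, so its depth describes the selection. Over Cip2a the score averaged -0.62 in the auxin matrix and -0.66 in the untreated matrix, and over Dzip3 it averaged -0.42 and -0.53. The differences were 0.04 for Cip2a and 0.11 for Dzip3, or 0.07 for Dzip3 without the sparse bin. Single bins of the interval had a median absolute change of 0.095. This is not a like measure, because each gene value averages signed changes over its bins. One Dzip3 bin, starting at 48950001 and picked out after its value was seen, differed by 0.30, with -0.36 in the auxin matrix and -0.66 in the untreated matrix, which is beyond the 0.24 that 90% of bins stayed within. Without the sparse bin, which is its neighbour, it differed by 0.16.

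Likeness of the contact profiles was measured by Pearson's r over 50 kb windows in the untreated matrix, leaving out windows within 200 kb of either gene. For Cip2a the most similar genes were Morc1 (r = 0.52 over 87 windows), Dppa2 (0.48) and Dppa4 (0.48). With the sparse bin left out, Dzip3 came first for Cip2a (0.63 over 97 windows), before Morc1 (0.52) and Dppa4 (0.48). For Dzip3 they were Trat1 (0.40 over 93 windows), Retnla (0.37) and Dppa4 (0.37), all lower values. Without the sparse bin the order for Dzip3 was Morc1 (0.72), Trat1 (0.64) and Cip2a (0.63). Dzip3 and Cip2a had r = 0.51 in the auxin matrix and 0.28 in the untreated matrix. Without the sparse bin they had 0.53 in the auxin matrix and 0.63 in the untreated matrix, so which matrix has the higher value depends on that bin. These windows share 1 library and its depth, and the genes share a bin.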

How the data were processed

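Per the deposited names, the authors pooled replicates of each condition, counted read pairs in bins of 10 kb and deposited 1 balanced matrix of signal (contact values without a unit) per condition. The build, mm10, and the trimming tool, Trim Galore, come from the submitters' processing notes; the aligner, the read filters and how balancing was run were not given in the sources used here. Per the labels' protocols, libraries of the series were cut with MboI and captured with RNA baits on fragments holding a strain difference, over 45488946 to 50879849 of chromosome 16; the sources do not say whether the pooled matrices come from such libraries. Stated bin positions were taken as starts.

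Each deposited value equals its read pairs, a whole number, multiplied by the factors of both bins. The factors were recovered from the step between values (pairs over 1500 kb apart, or all values for bins with few of those), and 100% of nonzero values came within 0.02 of whole in both matrices. Bins with few pairs have large factors, so that single pairs weigh heavily; the intervals do not cover this weight. A higher value in some pairs lowers the distance-corrected value of others at that distance. Contact is the sum of balanced values over the sum expected at each distance. Exact Poisson, binomial and conditional odds-ratio intervals at 95% came from the recovered pairs; pairs amplified from 1 molecule are not independent. A fold of 1.5 marks calls. Partner genes needed 20 pairs and windows 50 pairs in both matrices together.

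Partners named are 12 listed genes near the members, plus the 3 highest and 3 lowest per gene. The members, lists and rules were chosen with earlier results of these data known. Genes came from RefSeq (GRCm38.p6). The recovery and ratios were tested on simulated data. Alternatives were leaving out the sparse bin or all bins under 100 pairs, weighting by read pairs, balancing again, smoothed expected contact, a minimum of 50 kb, and insulation windows of 50 and 200 kb. Python 3.11.15, numpy 2.4.6, scipy 1.17.1 and matplotlib 3.10.9 were used.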

Additional observations from a re-analysis of the deposited data

How the results depend on the processing

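The left-side log2 ratio of Dzip3 turned from -0.08 to 0.07 without the sparse bin, to 0.07 without all bins under 100 pairs and to 0.10 with bin pairs weighted by read pairs, and was -0.19 when balanced again. Its right-side ratio was 0.28 weighted by read pairs and 0.24 balanced again. Balanced again, Cip2a had 0.14 to the left and -0.12 to the right, a turn of direction. The difference in Dzip3's share of balanced contact to the right, 6.82 percentage points, was 4.18 without the sparse bin, 4.11 without bins under 100 pairs and 2.6 weighted by read pairs. The insulation difference was 0.00 for Dzip3 and -0.09 for Cip2a balanced again, and -0.10 for Cip2a with a window of 50 kb. Of the genes past 1.5-fold higher with Dzip3, 2 were counted with weighting by read pairs and 3 when balanced again, in place of 5; past 1.5-fold lower, 1 was counted with weighting by read pairs and 1 with smoothed expected contact, in place of 2. With Cip2a 3 were counted when balanced again, in place of 7. Dzip3 with Nectin3 turned to -0.02 without bins under 100 pairs and to -0.10 weighted by read pairs, and Cip2a with Trat1 to -0.06 balanced again. The insulation difference with a window of 200 kb was 0.04 for Dzip3 and 0.11 for Cip2a, and with 50 kb it was 0.05 for Dzip3. Reading bin positions as ends, an alternative chosen after seeing the data and run for the contacts with each side only, gave Dzip3 -0.04 (-0.08 to 0.01) to the left and 0.36 to the right, and Cip2a 0.34 to the left and 0.14 to the right. Beyond the weights of the sparse bins and the row sums shown beside the results, the cause was not tested. No paired analysis was possible because each condition has 1 pooled matrix.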
